A study of Mus musculus with 3 samples.

Results

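The genes described here are 10 genes of microglia, the resident macrophages of the retina, and of the complement protein C1q, which they make: C1qa, C1qb, C1qc, Csf1r, Cx3cr1, Aif1, Tyrobp, Fcer1g, Ctss and Cd68. They were chosen by name, and every probe set to which the platform annotation gives 1 of these symbols alone was used, which is 14 of 12422 probe sets that are not controls. All 10 had at least 1 probe set, of 8251 genes represented on the array. The measurements came from mouse neural retina on the Affymetrix U74Av2 array, a 1-colour platform that reads a transcript through groups of short probes, here called probe sets.

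The series held 3 arrays, all of 1 group. Each carried RNA pooled from the retinas of 3 to 4 Rp1 knockout mice (Rp1-/-) at postnatal day 10, on a mixed 129/SvEv and C57BL/6 background, dissected between 1 and 2 pm. The Rp1 protein binds microtubules in the axoneme of photoreceptors. The labels describe neither the knockout allele nor any enrichment for a cell type, and arrays of control retina were not analysed here, so the values describe mutant retina and the comparisons are between pools. The labels give no replicate numbers and do not say whether pools shared animals. Pools 1, 2 and 3 are numbered in accession order, and the spread between them is that of 3 RNA samples.

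Microglia enter the retina during development, engulf dying neurons and prune synapses. C1q is the recognition subunit of the classical complement pathway and is assembled from chains encoded by C1qa, C1qb and C1qc; when bound to a target it activates the proteases C1r and C1s and, through them, C4 and C3, whose fragments mark material for uptake. Survival of microglia depends on the receptor Csf1r, and Tyrobp and Fcer1g are adaptors through which surface receptors of myeloid cells signal.

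The gene table used here (assembly GRCm38.p6) places C1qb, C1qc and C1qa next to each other, in that order, on chromosome 4, with no other gene between them. The 250 bases before the annotated start of transcription are printed for the members with signal on all arrays that had an entry in the RefSeq promoter table (GRCm38.p6), since these are the stretches next to the transcripts whose levels follow. Each is written 5′ to 3′ on the strand of its gene. Capitals mark GAGGAA or its reverse complement TTCCTC, the core of the element bound by PU.1 (gene Spi1), a transcription factor that microglia require.
C1qb, chr4:136886201-136886450, minus strand: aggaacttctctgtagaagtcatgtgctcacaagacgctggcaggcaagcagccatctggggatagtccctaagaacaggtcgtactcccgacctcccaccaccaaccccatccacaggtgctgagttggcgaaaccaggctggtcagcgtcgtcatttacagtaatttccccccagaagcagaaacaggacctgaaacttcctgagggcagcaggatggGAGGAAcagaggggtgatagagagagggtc
C1qc, chr4:136892915-136893164, minus strand: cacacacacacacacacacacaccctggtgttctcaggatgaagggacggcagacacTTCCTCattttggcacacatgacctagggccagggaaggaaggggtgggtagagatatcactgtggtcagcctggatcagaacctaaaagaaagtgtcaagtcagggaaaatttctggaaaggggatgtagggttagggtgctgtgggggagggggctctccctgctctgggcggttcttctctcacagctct
Ctss, chr3:95526536-95526785, plus strand: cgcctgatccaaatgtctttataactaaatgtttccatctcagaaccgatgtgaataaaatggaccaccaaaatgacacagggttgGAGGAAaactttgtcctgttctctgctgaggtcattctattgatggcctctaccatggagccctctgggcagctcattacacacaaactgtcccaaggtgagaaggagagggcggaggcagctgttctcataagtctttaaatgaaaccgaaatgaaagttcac
Cx3cr1, chr9:120068297-120068546, minus strand: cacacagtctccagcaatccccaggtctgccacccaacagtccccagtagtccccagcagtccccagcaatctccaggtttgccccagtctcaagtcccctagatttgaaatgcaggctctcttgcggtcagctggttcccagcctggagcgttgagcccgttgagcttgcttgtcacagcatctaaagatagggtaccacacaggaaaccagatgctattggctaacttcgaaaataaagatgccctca

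Of the 7 members with a promoter entry, 5 had this motif within 250 bases of the start (C1qb, C1qc, Aif1, Ctss and Cd68), against 23.3% of the 32851 windows of that length in the table. Cx3cr1 and Fcer1g had no match in this window. The AP-1 motif TGANTCA occurred among these members in Cd68 alone, at 2 places, and in 6.75% of all windows. Both strands were searched, and the matches of the 2 motifs did not overlap. These are matches of letters, and no binding was measured.

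The deposited values are intensities on a linear scale, here called signals. They had been scaled before deposit to equal trimmed means (500.25 to 500.26 on the 3 arrays). As a background floor, the 90th percentile of 19 control probe sets for bacterial and yeast transcripts was taken per array, 100.5, 124.8 and 120.4 signal units for pools 1, 2 and 3. A probe set was called measured when its mean signal exceeded the mean floor, which 8327 of the 12422 did. The number of arrays limits the precision. Photoreceptor markers fitted the labelled tissue: all 10 rod genes with a probe set exceeded the floor on every array, the brightest being Sag (rod arrestin) at 24889 ± 3820 (SD, n = 3), Pdc (phosducin) at 20890 ± 1353 and Pde6g (a phosphodiesterase subunit) at 15911 ± 2638. Lens genes, 7 of 10 of which passed the limma test of variability given further on, differed between pools, with a summed signal over 10 genes of 70926 in pool 1, 18820 in pool 2 and 160422 in pool 3. Those that passed were the crystallin genes Cryaa, Cryba1, Crybb2, Crygb, Crygc, Crygd and Crygs (limma, adjusted p from 0.0003 to 0.0041).

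Signal exceeded the floor on all 3 arrays for 7 of the 10 genes: all C1q chains, Csf1r, Cx3cr1, Tyrobp and Ctss. Over all genes on the array 66.4% met this criterion, so the share among the members was near the background. Cd68 was above the floor in 2 of 3 pools. Aif1 and Fcer1g were above it on no array. In whole retina, fewer microglia and less RNA per cell cannot be told apart, and a signal under the floor does not show that a transcript is absent.

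**Figure D1:**
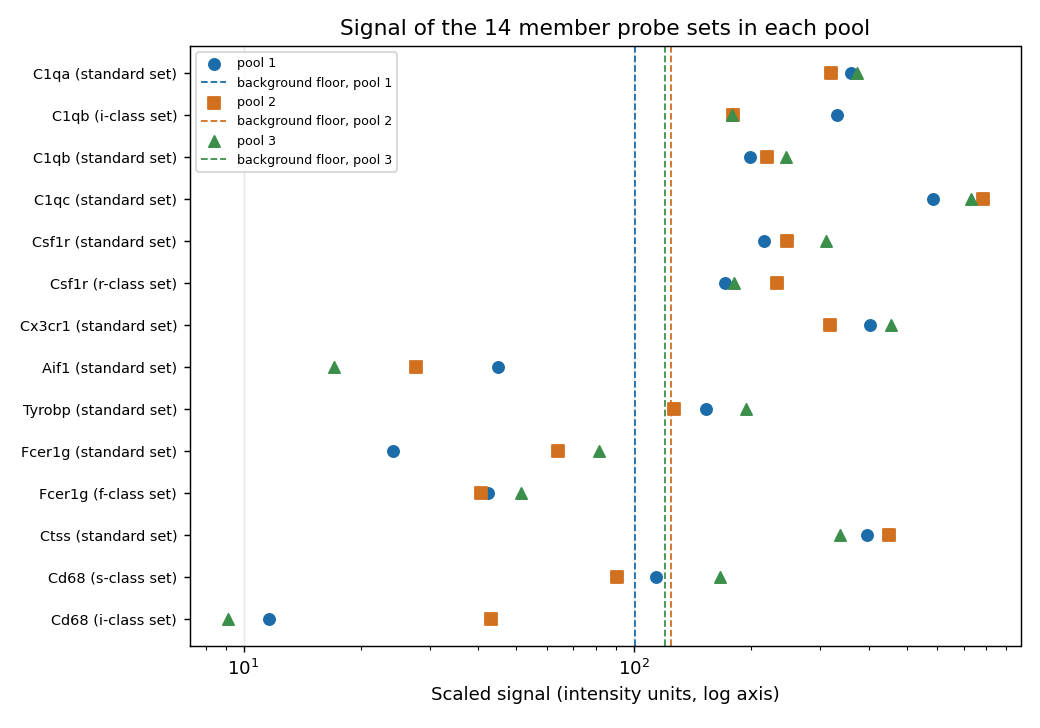
Signal of each of the 14 member probe sets (rows) in pools 1 (circles), 2 (squares) and 3 (triangles), in intensity units on a log axis, with the background floors of 100.5, 124.8 and 120.4 as dashed lines. C1qc, C1qa, Cx3cr1 and Ctss lie clear of the floors in every pool, Tyrobp in pool 2 lies on its floor, and Aif1 and Fcer1g lie below the floors throughout; positions of different probe sets along the axis are not relative amounts of transcript.

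The C1q chains gave signal above the floor in every pool. The C chain, C1qc, had a signal of 583.6 in pool 1, 784.0 in pool 2 and 731.8 in pool 3, a mean of 700 ± 104 (SD, n = 3), and was 5.81 to 6.28 times the floor of its array. Pool 1 was the lowest of the 3. C1qa, the A chain, had 360.1, 320.0 and 373.9, a mean of 351 ± 28.0, with the pools within 1.17-fold of each other. It had the smallest SD of log2 signal among the representative probe sets of the 8 measured members (0.12).

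C1qb, the B chain, was read by 2 probe sets that did not rank the pools alike. The standard set had 198.2, 220.0 and 245.8 in pools 1, 2 and 3, a mean of 221 ± 23.8 and a range of 1.24-fold, with pool 1 lowest. The other set, of the i class (after the suffix of its name), had 332.0, 180.1 and 178.7, a mean of 230 ± 88.1 and a range of 1.86-fold, with pool 1 highest. The log2 ratio of the i-class to the standard set was 0.74 in pool 1, -0.29 in pool 2 and -0.46 in pool 3. The 2 sets therefore differed by up to 1.20 on the log2 scale in how they placed the pools, although the annotation assigns both to 1 gene. The annotation gives no sequence accession for the i-class set.

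Ratios within an array show how far 1 chain changed against another between pools. The same ranges were not taken for other gene pairs, so a small range does not set the chains apart. The log2 ratio of C1qb (standard set) to C1qc was -1.56, -1.83 and -1.57 in pools 1, 2 and 3, a range of 0.28. With the i-class set in its place the same ratio was -0.81, -2.12 and -2.03, a range of 1.31. The log2 ratio of C1qa to C1qb (standard set) ranged over 0.32, and that of C1qa to C1qc over 0.60, from -0.70 in pool 1 to -1.29 in pool 2. The size of such a ratio depends on how strongly each probe set binds its target, and only its change between pools is read here.

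Among the receptors, Cx3cr1, the receptor through which microglia sense the neuronal chemokine fractalkine, had 402.7, 317.7 and 456.4 in pools 1, 2 and 3, a mean of 392 ± 69.9. Pool 3 was the highest and pool 2 the lowest, 1.44-fold apart. Csf1r, the receptor for CSF1 and IL-34, had 215.6, 247.1 and 311.4 by its standard probe set, a mean of 258 ± 48.8, lowest in pool 1 and highest in pool 3. Its second probe set, of the r class (chosen under relaxed rules), had 171.2, 232.2 and 181.2, a mean of 195 ± 32.7. Pool 1 was lowest in both, whereas the highest pool differed, and their log2 ratio ranged over 0.69 between pools.

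The adaptors were near or below the floor. Tyrobp (also called DAP12), the partner of TREM2 and related receptors, had 153.6, 126.6 and 194.1 in pools 1, 2 and 3, a mean of 158 ± 34.0. In pool 2 it was 1.01 times the floor, so its 1.53-fold range between pools 2 and 3 has a value at background at its lower end. Fcer1g, the common gamma chain of Fc receptors, had 24.1, 64.1 and 81.5 by its standard set and 42.4, 40.7 and 51.4 by a set of the f class, all under the floors. No difference between pools is given for it.

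Of the lysosomal members, Ctss stood clear of the floor and Cd68 near it. Ctss, the lysosomal protease cathepsin S, had 395.0, 451.8 and 338.5 in pools 1, 2 and 3, a mean of 395 ± 56.6, with pool 3 the lowest. It was at least 2.81 times the floor in each pool. Cd68, a lysosomal membrane glycoprotein of macrophages, had 114.1, 90.8 and 166.3 by a set of the s class, which can bind related transcripts, and lay under the floor in pool 2. A second Cd68 set, of the i class, was under the floor everywhere at 11.6, 43.0 and 9.1. Aif1, which encodes the calcium-binding protein IBA1 widely used to stain microglia, had 44.8, 27.6 and 17.1 in pools 1, 2 and 3 and was at most 0.446 times the floor.

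No measured member passed a test for varying between pools beyond the spread typical of its signal. The test asked, for each measured probe set, whether its variance over the 3 pools exceeded that of probe sets of like signal (limma, intercept-only model with an intensity trend, Benjamini-Hochberg over all 8327). Of the 10 measured member probe sets 0 passed at the threshold of 0.05 and 0 had an unadjusted p under 0.05, where 0.216% of all measured probe sets (18) passed and 445 had an unadjusted p under 0.05. The adjusted p of the members lay between 0.99 and 1.0 (limma). The variance was under the trend for 9 of the 10, against 60.3% of all measured probe sets, and the exception was the i-class set of C1qb at 1.45 times the trend. The 9 include Cd68, whose pool 2 signal of 90.8 was raised to the floor of 124.8, which narrowed its spread. C1qb and Csf1r have 2 sets each among the 10. The median SD of log2 signal was 0.267 over the 8 measured members and 0.26 over all 6210 measured genes. A p that misses the threshold does not show that the pools were alike, and ranges of 1.17-fold to 1.86-fold, those of the members above the floor on all arrays, did not pass with 3 arrays. The test finds few changes of this size: in simulated data it called 10 of 50 probe sets changed 2-fold in 1 array.

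**Figure D2:**
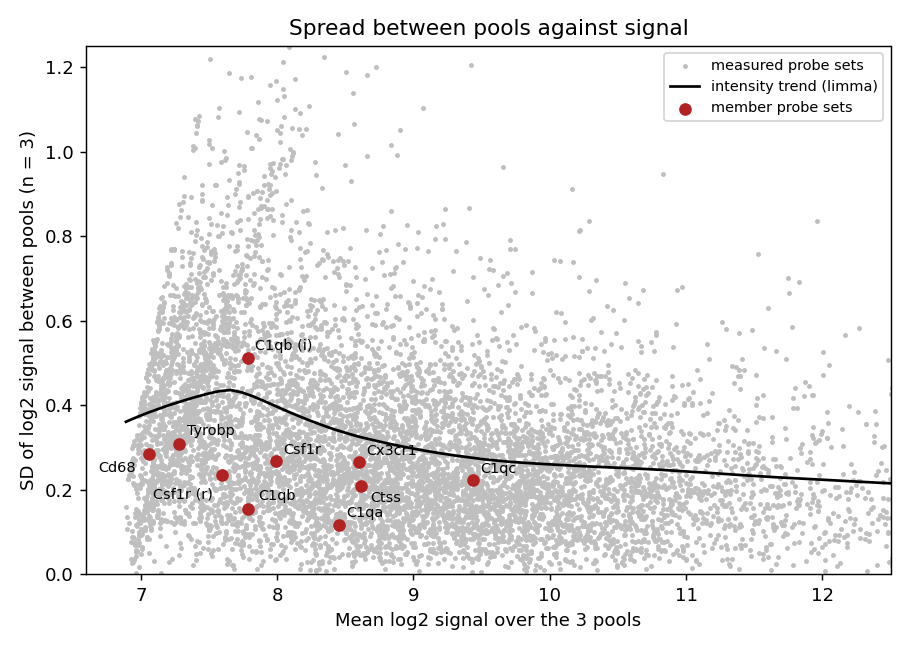
SD of log2 signal between the 3 pools against mean log2 signal, for the measured probe sets (grey; the axes leave out the highest signals and SDs), with the intensity trend as a black line and the 10 measured member probe sets in red. All members lie under the trend except the i-class set of C1qb, at an SD of 0.51 where the trend is 0.42.

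The order of the pools differed between members. Of the 7 above the floor on all arrays, each taken at the probe set with the highest mean signal, 4 were highest in pool 3 (C1qa, Csf1r, Cx3cr1 and Tyrobp), 2 in pool 2 (C1qc and Ctss) and 1 in pool 1 (C1qb by its i-class set; its standard set was highest in pool 3). Pool 3 was the highest for 31.6% of all genes above the floor on all arrays. The signals of these 7 members summed to 2442.6 in pool 1, 2427.3 in pool 2 and 2584.8 in pool 3. With C1qb by its standard set the sums were 2308.8, 2467.2 and 2651.9, so that pool 1 was the lowest in place of pool 2. C1qa, Cx3cr1 and Tyrobp ran from lowest in pool 2 through pool 1 to highest in pool 3, an order shared by 15.7% of 5475 genes, and lens genes ran in this order too. Whether lens tissue had a part in the levels of these members was not tested.

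**Figure D3:**
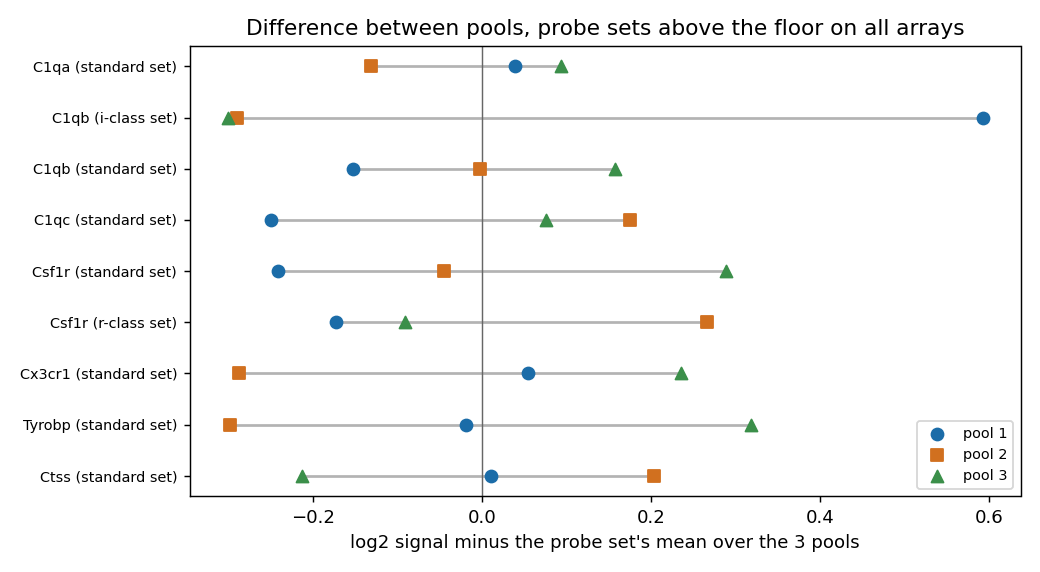
Log2 signal of the 9 member probe sets that were above the floor on all arrays, as the difference from each set's own mean over pools 1 (circles), 2 (squares) and 3 (triangles); grey bars span the 3 pools. The pools come in different orders for different genes, and the widest bar, 1.86-fold from end to end, is the i-class set of C1qb, whose standard set spans 1.24-fold.

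Between pairs of pools, 0 of the 8 measured members differed by more than 2-fold, where 5.65% of all measured genes did so for pools 1 and 2, 6.18% for pools 1 and 3, and 4.86% for pools 2 and 3. With 1 array a pool there is no test of a single pair. The median log2 difference over the 8 was 0.02 for pool 1 minus pool 2, with 4 higher and 4 lower, and took either sign, from -0.14 to 0.21, with other settings. Against pool 3, the median of pool 1 was -0.25, with 6 of 8 lower in pool 1, and that of pool 2 was -0.28, with 5 of 8 lower in pool 2. Over all measured genes the medians were 0.00, 0.00 and 0.01, with 49.8%, 49.9% and 50.8% higher in the first pool of the pair. The central 90% of single genes lay between -0.84 and 0.84 for pool 1 minus pool 3. The largest single differences were those of C1qb by its i-class set, 0.88 and 0.89 for pool 1 minus pools 2 and 3, and of Tyrobp, -0.62 for pool 2 minus pool 3. Cd68 enters these medians at the floor of pool 2. It therefore counts as lower in pool 1 than in pool 2 (-0.13), although its signal was higher in pool 1 (114.1 against 90.8). Over the 7 members above the floor on all arrays, the median for pool 1 minus pool 2 was 0.17.

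Endothelial markers also had their highest summed signal in pool 3, with 2413, 2366 and 3102 in pools 1, 2 and 3. The median log2 differences over 7 measured genes were -0.45 for pool 1 and -0.48 for pool 2, each minus pool 3. Of the 7, 6 were lower in pool 1 and 5 were lower in pool 2 than in pool 3. Among all measured genes, 49.9% were higher in pool 1 and 50.8% higher in pool 2 than in pool 3. The brightest were Eng (endoglin) at 750 ± 195, Kdr (the VEGF receptor) at 670 ± 70.4 and Cldn5 (a tight junction claudin) at 490 ± 115. The signals of Tie1 (210.8, 123.8 and 118.3) and Cdh5 (113.2, 173.7 and 96.3) were instead lowest in pool 3. Erythroid genes had their highest summed signal in pool 1, with 20589, 12812 and 10725 over 4 genes. Most of each sum was the globin gene Hba-a1, at 16422.3, 9461.1 and 8110.5, a mean of 11331 ± 4460. The next were the globin gene Hbb-b2 at 3004 ± 812 and the heme synthesis gene Alas2 at 251 ± 43.1. Of the 4, 3 were higher in pool 1 than in pool 2, and 3 higher than in pool 3. The other, Slc4a1, was lowest in pool 1, at 48.1, 140.0 and 179.1. None of the measured endothelial or erythroid genes passed the test of variability (limma). The part of either in the members' levels was not tested.

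The rest of the complement pathway was read from a list of 42 genes, of which 30 had a probe set and 15 were measured. Beside this count and those of the lists below, 6210 of all 8251 genes with a probe set were measured. C1s1, C3, C4a and C4b had no probe set assigned to them alone, so these steps after C1q were not read. None of the 15 passed the test of variability (limma). C1ra, which encodes the protease C1r, had 155.3, 211.6 and 202.8 in pools 1, 2 and 3 by a set of the f class, and C2, the protease component of the next step, had 290.5, 151.5 and 162.4. Serping1, the inhibitor of C1r and C1s, had 140.4, 269.7 and 150.6, highest in pool 2. The probe sets of the receptor gene C3ar1 (147.4, 89.3 and 55.9) and of both chains of complement receptor 3, Itgam (58.7, 42.8 and 48.1) and Itgb2 (42.5, 83.2 and 34.3), were not measured. C5ar1, the C5a receptor, was above the floor in all pools at 295 ± 75.4. The brightest sets were those of Clu (clusterin, an inhibitor of the terminal complex) at 1023.4, 677.1 and 1400.6 and Vtn (vitronectin) at 390.8, 752.9 and 582.5 (limma, adjusted p of 0.88 and 0.99), and Clu had the same order of pools as the lens genes. The median log2 differences of the 15 were 0.17, -0.10 and 0.05 for pools 1 minus 2, 1 minus 3 and 2 minus 3.

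Receptors and kinases that work with Tyrobp and Fcer1g were represented by 14 of 24 genes, of which 9 were measured and 0 passed (limma). Fcgr3, the Fc receptor that needs the gamma chain for its surface expression, had 169.2, 196.8 and 224.9 in pools 1, 2 and 3, above the floor throughout, although Fcer1g itself was under the floor. Syk, the kinase recruited by both adaptors, had 635 ± 98.9, Vav1, an exchange factor for Rac, 316 ± 87.9 and Inpp5d, the inositol phosphatase SHIP1, 274 ± 82.5. Of the 9, 8 were lower in pool 2 than in pool 3, where 50.8% of all measured genes were higher in pool 2. The median log2 difference was -0.28, the same as that of the members. For this pair the complement, receptor axis, lysosome and other myeloid lists had medians of 0.05, -0.08, -0.05 and -0.03. Whether the members and this list shared a shift was not tested. The list's medians for pool 1 minus pools 2 and 3 were -0.01 and -0.22.

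Ligands, sheddases and transcription factors around Csf1r and Cx3cr1 were represented by 18 of 21 genes, of which 12 were measured and 0 passed (limma). Csf1, a ligand of Csf1r, had 271.4, 265.4 and 336.1 in pools 1, 2 and 3. Cx3cl1, the neuronal ligand of Cx3cr1, had 777.9, 674.5 and 689.8, a mean of 714 ± 55.8, and Adam10, a protease that sheds it, 507 ± 92.7. Spi1, which encodes PU.1, was just over the floor at 105.9, 162.4 and 131.6, and Irf8, another factor of microglial identity, had 242.0, 285.4 and 205.5. Cebpa, a further myeloid transcription factor, had 318.6, 322.1 and 421.2. Pool 2 was highest for Spi1 and Irf8 and pool 3 for Cebpa, where 34.1% of all genes above the floor on all arrays were highest in pool 2 and 31.6% in pool 3. Grb2, an adaptor of receptor tyrosine kinases, had 728 ± 147. The list's medians were 0.01, -0.24 and -0.08 for pools 1 minus 2, 1 minus 3 and 2 minus 3.

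The lysosome and phagocytosis list had 24 measured of 29 genes with a probe set, and 0 passed (limma). Of the 29, 23 were above the floor on all arrays, where 66.4% of all genes were. Its brightest members are expressed by many cell types: Cst3, the cathepsin inhibitor cystatin C, had 10426 ± 1208, Mfge8, a bridge between dying cells and phagocytes, 5824 ± 865, and Lamp1, a lysosomal membrane protein, 4343 ± 856. The list's medians were -0.06, -0.12 and -0.05 for pools 1 minus 2, 1 minus 3 and 2 minus 3.

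Further myeloid markers were read from a list of 34 genes. Of the 23 with a probe set 12 were measured and 10 were above the floor on all arrays, and 0 passed the test of variability (limma). The microglial markers P2ry12, Tmem119, Siglech, Gpr34, Olfml3 and Sall1 had no probe set assigned to them alone. Slc2a5, on the same list, had a probe set that lay under the floor in every pool, at 56.2, 83.9 and 119.4. Microglia were therefore not told apart from other myeloid cells by this list. Cd14, a co-receptor for lipopolysaccharide, had 547 ± 67.0, Arhgdib, an inhibitor of small GTPases in blood cells, 586 ± 83.6, Rac2, a GTPase of blood cells, 478 ± 103, and Laptm5, a lysosomal protein of leukocytes, 256.6, 430.6 and 364.1 in pools 1, 2 and 3 by a set of the f class. The pan-leukocyte gene Ptprc (17.4, 82.2 and 55.7), the lysozyme gene Lyz2 (39.3, 39.7 and 48.8) and Cd53 (73.5, 12 and 15.6) were under the floor in every pool. Adgre1, which encodes the macrophage antigen F4/80, exceeded it in pool 2 alone at 178.4. The list's medians were 0.00, -0.45 and -0.03 for pools 1 minus 2, 1 minus 3 and 2 minus 3. Thus 10 of these 23 markers and 7 of the 10 members exceeded the floor on every array, where 66.4% of all genes did. Aif1, Itgam and Ptprc, each widely used to define microglia or leukocytes, and Fcer1g exceeded the floor on no array.

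Markers of other cells that the tissue could hold, some of which carry C1q or Fc receptor transcripts, were read in the same way. Whether any of these cells was present was not tested. For comparison, 6210 of all 8251 genes with a probe set were measured, and 66.4% were above the floor on all arrays. Of 5 border macrophage genes with a probe set 2 were measured, Stab1 at 275 ± 22.9 and Cbr2 above the floor in 2 of 3 pools, while Mrc1, the mannose receptor, was not. Of 10 genes of neutrophils and blood monocytes 5 were measured and 2 were above the floor on all arrays. The latter were Camp, an antimicrobial peptide of neutrophils, at 195.9, 399.0 and 281.5, and Lcn2, an iron-carrier protein of neutrophil granules also made by other cells, at 220.2, 207.3 and 252.0 by a set of the r class. Elane, neutrophil elastase, had 307.7, 209.2 and 52.7 and was above the floor in 2 of 3 pools, and Ccr2, a receptor of blood monocytes, was not measured (71.3, 12.3 and 8.5). Of 14 lymphocyte genes 4 were measured and 3 were above the floor on all arrays. These were Cd4, the T helper cell co-receptor, at 444.5, 263.6 and 205.9 in pools 1, 2 and 3, Cd79a, a B cell receptor subunit, at 201.1, 281.8 and 155.9, and Ms4a1, the B cell antigen CD20, at 215.4, 154.7 and 249.2, whereas all 3 chains of CD3 with a probe set (Cd3e, Cd3d and Cd3g) were under the floor on every array. Of 9 mast cell and platelet genes 4 were measured, among them Tpsb2, a mast cell tryptase, at 164.3, 373.1 and 694.1 in pools 1, 2 and 3, which did not pass (limma, adjusted p = 0.47), Kit, the stem cell factor receptor, at 296 ± 33.2, and Gp1bb, a platelet glycoprotein, at 319 ± 46.1. Of 9 genes of Müller glia and astrocytes 7 were measured, with Apoe, a lipid carrier that activated microglia also make, at 5208 ± 1283, Car2, a carbonic anhydrase, at 7536 ± 379, and Dkk3, a secreted protein of the Dickkopf family, at 2927 ± 610. None of the measured genes of these lists passed the test (limma). The summed signals of the measured genes in pools 1, 2 and 3 were 448, 368 and 457 for border macrophages, 932, 1071 and 916 for neutrophils and monocytes, 1041, 804 and 877 for lymphocytes, 821, 1058 and 1672 for mast cells and platelets, and 20392, 18505 and 19915 for the glia.

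**Figure D4:**
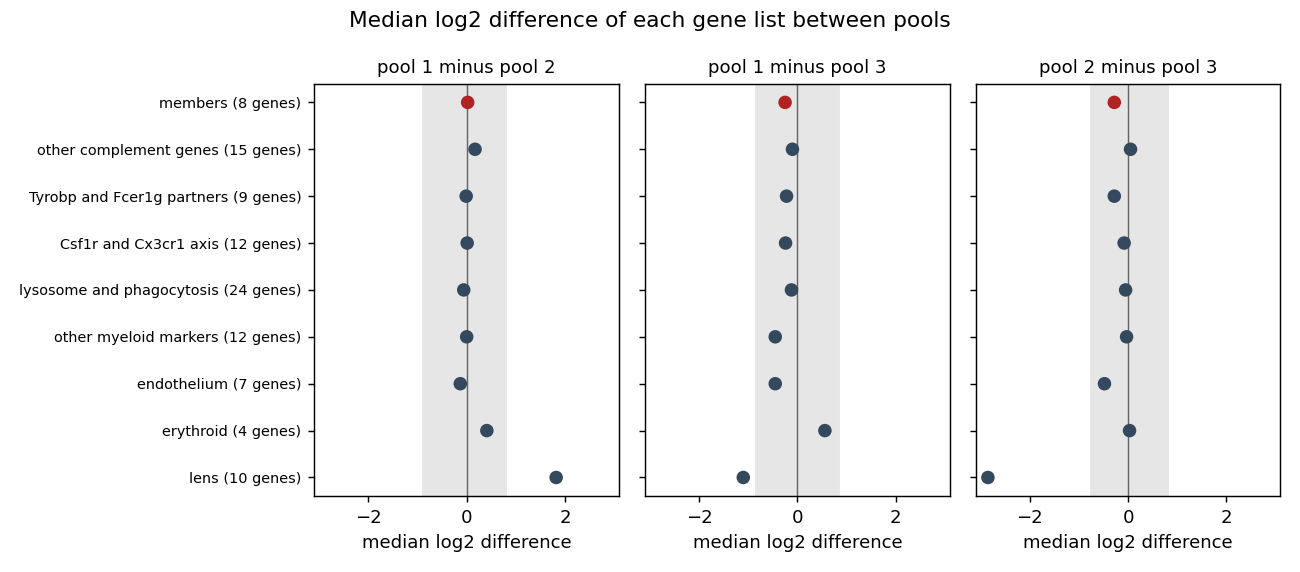
For each pair of pools, the median log2 difference of the members (red) and of 8 other gene lists, with the number of measured genes in parentheses; the grey band holds the central 90% of all 6210 measured genes taken singly. The members and the complement, adaptor partner, receptor axis, lysosome and other myeloid lists lie between -0.45 and 0.17, while lens genes reach 1.82, -1.10 and -2.85.

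The genes whose profile over the 3 pools lay nearest to the mean profile of the C1q chains, each chain at its brightest probe set, were Zfp651, Fryl and Spryd4, with a root-mean-square difference of 0.001, 0.002 and 0.002 on the log2 scale. The C1q profile itself was shallow, at 0.13, -0.08 and -0.04 around its mean in pools 1, 2 and 3, and its direction rested on the probe set of C1qb. With the standard set it was -0.12, 0.01 and 0.11, lowest instead of highest in pool 1, and the nearest genes were Hp1bp3, Ermp1 and Ten1, none of them the same. Zfp651 had 760.6, 657.7 and 676.4, whereas Hp1bp3 had 1658.6, 1823.1 and 1939.1 in pools 1, 2 and 3. Over 3 arrays such closeness is common: 867 of 6210 measured genes lay within 0.1 of the profile with the i-class set, 838 of them nearer than C1qa (0.098), and C1qb and C1qc lay at 0.33 and 0.273. With the standard set 825 lay within 0.1, of which 53 were among the 867.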

How the data were processed

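RNA from 3 pools of retinas was measured on 3 arrays of 1 group. The table deposited by the authors holds linear intensities, 1 for each probe set on each array; which software made them, and how, is not given in the sources used here. Equal trimmed means (2% from each end) show that the arrays had been scaled, and the values were not scaled again. The table had 12488 probe sets, of which 66 controls were kept out, and 1 blank row, which was dropped. The platform annotation gave 1 symbol to 10833 of the 12422 others, several to 396 and none to 1193. For 10817 the symbol was taken from the gene table (GRCm38.p6) through the gene identifier, whether or not it changed. The deposited table of intensities carries no coordinates, and the order of the C1q genes was taken from the gene table. Lower signals were raised to the floor before log2 was taken, and the measured probe sets were tested with limma 3.58.1 in R 4.3.3 by the upper tail of an F distribution fitted robustly with an intensity trend. A gene was represented by its probe set with the highest mean signal. The rule for names covered every member with all probe sets, the 3 brightest measured genes of each list, genes of the lists past the test and the 3 nearest profiles; the other genes given were chosen after their values were seen. The members and lists were chosen with earlier results of these data known. The test was checked on simulated data, with each probe set given the spread typical of its signal. It called 10 of 50 probe sets changed 2-fold in 1 array and 49 of 50 changed 4-fold. Alternatives changed the floor, normalization, filter, fit, probe set and arrays used. Python 3.11.15, pandas 2.3.3, numpy 2.4.6 and scipy 1.17.1 did the rest, and matplotlib 3.10.9 drew the figures.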

Additional observations from a re-analysis of the deposited data

How the results depend on the processing

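The members gave 0 calls among their measured probe sets in each of the 11 alternatives to the test of variability (limma), with adjusted p from 0.82 to 1.0 and 0 unadjusted p under 0.05. The count over all probe sets was less stable against its 18: it was 10 with log2(signal + 16) in place of the floor, 52 with no filter on low signals, 6 with an ordinary fit, and 0 without the intensity trend (limma, with 377 unadjusted p under 0.05). Leaving out 1 array gave between 4 and 40 calls, 40 without pool 1, 10 without pool 2 and 4 without pool 3. The number of members above the floor on all arrays was 8 with the floor at the median control and 5 with the floor at the highest control, where C1qb and Tyrobp no longer met it, and 8 without pool 2, where Cd68 was added. The median difference of the members stayed below 0 in 7 alternatives each for pool 1 minus 3 (-0.33 to -0.12) and pool 2 minus 3 (-0.33 to -0.13). A floor common to the 3 arrays, the members above the floor on all arrays and C1qb by its standard set were alternatives chosen after seeing the data. No paired analysis was possible because there was 1 group. Signal over background limits what can be said of Tyrobp, Cd68, Aif1 and Fcer1g.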
